A study of Mus musculus with 6 samples.

Results

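The genes described here code for subunits of the CMG replicative helicase, the machine that opens the DNA helix ahead of the replication fork. They were taken by gene symbol: Mcm2 to Mcm7, Cdc45 and the GINS genes Gins1, Gins2 and Gins3. All 10 genes were measured, through 11 of the 37932 probes of the array, and they make up 10 of the 21878 genes tested. Gins4, the fourth GINS gene, was not among the 10 and is given beside them. The RNA came from ovarian tumours of mice made to express progesterone receptor B, hybridised to 6 single-colour Cy3 arrays. In the RU486 group, 3 arrays held tumour RNA from mice that carried a slow-release pellet of RU486 for 24 h. RU486, or mifepristone, is a steroid antagonist of the progesterone and glucocorticoid receptors. In the placebo group, 3 arrays held tumour RNA from mice that carried a placebo pellet for the same time. Tumours in both groups measured 0.5 to 1 cm across when the pellets were given. Both groups carried the same alleles, written Pgrcre/+mPgrLsL/+ in the sample labels and Pgrcre/+PgrBLsL/+ in the design text. These names denote Cre recombinase expressed from one Pgr allele, and a receptor transgene held behind a stop cassette until Cre removes it, so the transgene is confined to cells in which the Pgr gene has been active, and the groups hold no mouse without it. The labels give no age or strain of the mice and do not say whether each array holds a different mouse, so the p-values measure the spread between these arrays.

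MCM2 to MCM7 form a ring that is loaded onto origins of replication in G1 phase in an inactive state. At the start of S phase CDC45 and the GINS tetramer join the ring, and the complete complex, named CMG after Cdc45, MCM and GINS, becomes the active helicase. The genes of the complex are transcribed mostly in cells that are cycling, many under control of E2F transcription factors, and MCM proteins are widely used as markers of proliferating cells in tumours.

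RefSeq promoter windows of mouse build GRCm38.p6, which run from 250 bases before a gene's start to 50 bases after it, were found for 7 of the 10 members, with 2 starts for Mcm7. The stretches below, each of the 200 bases before the start, are shown because E2F sites are the best known control elements of this family. Mcm5, Mcm6 and Mcm7 had lower scores in all 3 RU486 arrays than in any placebo array, and Gins3 did not. Capitals mark the E2F octamers TTTCCCGC, TTTCGCGC, TTTGCCGC and TTTGGCGC, read on either strand.
Mcm5, chr8:75109309-75109508, plus strand: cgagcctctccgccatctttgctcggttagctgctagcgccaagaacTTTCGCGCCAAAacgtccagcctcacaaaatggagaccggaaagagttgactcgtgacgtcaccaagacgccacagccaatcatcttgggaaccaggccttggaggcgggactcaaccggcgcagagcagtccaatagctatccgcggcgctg
Mcm6, chr1:128359706-128359905, minus strand: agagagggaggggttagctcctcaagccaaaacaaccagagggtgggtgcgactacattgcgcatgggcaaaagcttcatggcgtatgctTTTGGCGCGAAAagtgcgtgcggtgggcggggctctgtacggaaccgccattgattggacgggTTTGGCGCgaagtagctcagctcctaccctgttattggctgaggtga
Mcm7, chr5:138171884-138172083, minus strand: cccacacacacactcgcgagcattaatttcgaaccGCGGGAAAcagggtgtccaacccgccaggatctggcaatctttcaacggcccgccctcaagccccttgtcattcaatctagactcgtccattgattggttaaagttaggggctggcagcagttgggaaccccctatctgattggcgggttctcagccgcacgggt
Gins3, chr8:95633359-95633558, plus strand: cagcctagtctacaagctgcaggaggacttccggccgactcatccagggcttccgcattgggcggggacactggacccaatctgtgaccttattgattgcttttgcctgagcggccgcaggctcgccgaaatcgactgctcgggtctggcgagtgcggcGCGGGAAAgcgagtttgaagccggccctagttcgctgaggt

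The Mcm5 stretch held TTTCGCGC and, on the other strand, TTTGGCGC, which overlap within the run of capitals that starts at base -153 from the gene's start. In Mcm6 an overlapping pair of the same octamers started at base -110, and a TTTGGCGC of its own at base -47. Mcm7 held TTTCCCGC on the reverse strand from base -165, and Gins3 held the same octamer on the reverse strand from base -41. An octamer was present in the windows of 5 of the 7 members with a window, the other being Mcm3, whose octamers both lie after its start. Of all 32851 promoter windows, 2.26% held at least 1 of the 4 octamers. No octamer was found in the windows of Mcm2 or Cdc45, or in that of the second start of Mcm7. At its first start Mcm7 held a further TTTCGCGC at base 17 after the start, whose last base is the first of a CCAAT box. The CCAAT box, searched on both strands, was present in the windows of all 7 members and in 37.4% of all windows. TTTGAA, the core of the cell cycle homology element, was found for Mcm2, Cdc45 and Gins3, against 17.9% of all windows. The binding element that the progesterone and glucocorticoid receptors share, searched as GNACA and its reverse complement 3 bases apart, was in none of the 8 windows of members and in 0.475% of all windows. Gins3, whose groups overlapped, held an octamer, and Mcm2 and Cdc45, whose groups did not overlap, held none. Whether E2F control bears on the scores was not tested.

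The deposited values are scores, in which each probe was centred and scaled over the 6 arrays to a mean of 0 and an SD of 1. A score says how an array stands relative to the other arrays for that probe, so levels of different genes cannot be compared and fold changes cannot be given. A higher score was taken as more RNA. The standardised difference of a gene is the mean score of the RU486 arrays minus that of the placebo arrays, with a largest possible size of 1.83. Of the 10 members, 9 had lower scores in every RU486 array than in any placebo array, where 10.8% of all genes did. The same 9 were lower at an unadjusted p of 0.05 by limma's ordinary statistic, against 7.08% of all genes. After Benjamini-Hochberg adjustment over all genes 0 members passed, with limma adjusted p from 0.236 to 0.954, and over all genes 1 passed, or 0.00457%. The median difference of the members was -1.55, and that of all genes was -0.06. The count of 9 became 5 when placebo array 2 was left out. In bulk tumour RNA, fewer cycling cells and less of these RNAs per cell cannot be told apart.

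**Figure D1:**
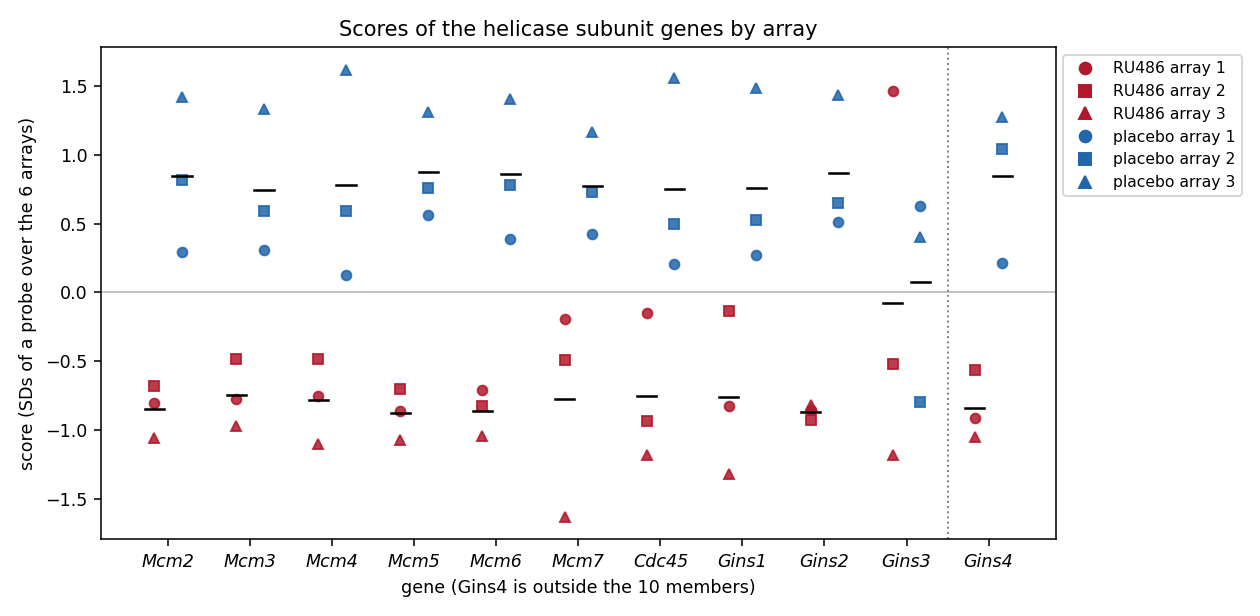
Scores of the 10 members and of Gins4 on each array, in units of a probe's SD, with RU486 arrays in red, placebo arrays in blue and black bars at the group means. In 9 members and in Gins4 the 3 RU486 arrays lie below the 3 placebo arrays, and in Gins3 the groups overlap.

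Among the ring subunits, Mcm5 had the largest standardised difference by gene, although 1 of the 2 probes averaged for Mcm3 stood at -1.80 alone. Mcm5, which with Mcm2 forms the gate at which the ring opens, scored -0.862, -0.701 and -1.07 in RU486 arrays 1 to 3, against 0.563, 0.760 and 1.31 in placebo arrays 1 to 3. The groups were far apart, with a gap of 1.26 between the highest RU486 score and the lowest placebo score. Its difference was -1.76 (SE 0.249, limma adjusted p = 0.236), and an exact permutation test gave a two-sided p of 0.1, the smallest that 3 against 3 arrays allow, as it did for each of the 9 separated members.

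Mcm6, a ring subunit, scored -0.706, -0.828 and -1.04 in RU486 arrays 1 to 3, against 0.391, 0.783 and 1.40 in placebo arrays 1 to 3. The gap between the groups was 1.10, and the difference was -1.72 (SE 0.310, limma adjusted p = 0.272). Mcm2, a ring subunit that also carries histones at the fork, scored -0.802, -0.677 and -1.06 in RU486 arrays 1 to 3, against 0.294, 0.820 and 1.42 in placebo arrays 1 to 3. Its groups were apart by 0.970, with a difference of -1.69 (SE 0.345, limma adjusted p = 0.295). In Mcm2, Mcm5 and Mcm6 alike the RU486 arrays lay close together, with SDs of 0.194, 0.186 and 0.170, whereas the placebo arrays had SDs of 0.565, 0.388 and 0.509.

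Mcm4 forms with Mcm6 and Mcm7 the part of the ring that has helicase activity on its own. It scored -0.752, -0.482 and -1.10 in RU486 arrays 1 to 3, against 0.130, 0.591 and 1.62 in placebo arrays 1 to 3. Placebo array 1 stood nearest to the RU486 arrays, and the difference was -1.56 (SE 0.475, limma adjusted p = 0.390). Mcm7 scored -0.190, -0.492 and -1.63 in RU486 arrays 1 to 3, against 0.425, 0.726 and 1.16 in placebo arrays 1 to 3. Here the RU486 arrays were the more spread, with an SD of 0.760 against 0.371 in the placebo arrays. RU486 array 3 held the lowest score of any member on any array, and the difference was -1.54 (SE 0.488, limma adjusted p = 0.390).

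Mcm3, which pairs with Mcm5 in the ring, was the 1 member with more than 1 probe, and its 2 probes differed. The probe annotated to a cDNA clone scored -0.787, -0.736 and -1.17 in RU486 arrays 1 to 3, against 1.05, 0.844 and 0.803 in placebo arrays 1 to 3. At that probe the groups were clearly apart, with a difference of -1.80 (SE 0.158, limma adjusted p = 0.205 over all probes). At the probe annotated to the RefSeq transcript the scores were -0.768, -0.226 and -0.765 in RU486 arrays 1 to 3, against -0.440, 0.337 and 1.86 in placebo arrays 1 to 3. Placebo array 1 fell inside the range of the RU486 arrays there, and the difference was -1.17 (SE 0.700, limma adjusted p = 0.565 over all probes). The mean of both probes gave a difference of -1.49 (SE 0.337, limma adjusted p = 0.324). With every probe fitted alone, 6.39% of all probes were lower at an unadjusted p of 0.05 by limma.

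Cdc45, the subunit that ties the ring to GINS and whose arrival marks the firing of an origin, scored -0.151, -0.932 and -1.18 in RU486 arrays 1 to 3, against 0.209, 0.496 and 1.56 in placebo arrays 1 to 3. RU486 array 1 and placebo array 1 were separated by a gap of 0.359, the smallest of the 9 separated members. The difference was -1.51 (SE 0.514, limma adjusted p = 0.390), with a 95% confidence interval from -2.94 to -0.08.

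The GINS genes did not all share the pattern. Gins2 scored -0.856, -0.926 and -0.816 in RU486 arrays 1 to 3, against 0.514, 0.652 and 1.43 in placebo arrays 1 to 3. Its gap of 1.33 was the widest of the 10 members and its RU486 arrays had the smallest SD, 0.0557, with a difference of -1.73 (SE 0.288, limma adjusted p = 0.247). Gins1 scored -0.825, -0.132 and -1.32 in RU486 arrays 1 to 3, against 0.270, 0.523 and 1.49 in placebo arrays 1 to 3. RU486 array 2 came nearest to the placebo arrays, and the difference was -1.52 (SE 0.506, limma adjusted p = 0.390). Gins4 scored -0.915, -0.564 and -1.05 in RU486 arrays 1 to 3, against 0.215, 1.04 and 1.27 in placebo arrays 1 to 3. The groups of Gins4 did not overlap, and its difference was -1.68 (SE 0.352, limma adjusted p = 0.302).

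Gins3 was the exception among the 10 members. It scored 1.46, -0.520 and -1.18 in RU486 arrays 1 to 3, against 0.631, -0.796 and 0.400 in placebo arrays 1 to 3. RU486 array 1 had its highest score and RU486 array 3 its lowest, so the placebo arrays lay inside the RU486 range. Its difference was -0.16 (SE 0.910, limma adjusted p = 0.954), with a 95% confidence interval from -2.68 to 2.37. That interval spans every possible difference, up to 1.83 in size either way. For 1 scaled probe a difference near 0 fixes such a width, so the interval cannot tell Gins3 from the other members. Single arrays set its sign. Leaving out RU486 array 1 gave -0.93, RU486 array 2 gave 0.06 and RU486 array 3 gave 0.39, while leaving out placebo array 1 gave 0.12, placebo array 2 gave -0.59 and placebo array 3 gave 0.0041. Array weights, estimated by limma from the scores, gave 0.61, with most weight on placebo array 2 (4.96). When the score of another GINS gene was subtracted from that of Gins3 on each array, the RU486 minus placebo difference was 1.36 against Gins1, 1.58 against Gins2 and 1.53 against Gins4. Exact permutation tests of these 3 contrasts gave two-sided p of 0.3, 0.2 and 0.3, each 0.3 after Benjamini-Hochberg adjustment. These contrasts were chosen after the scores of Gins3 were seen, and with 3 against 3 arrays none could give a p under 0.1, so they leave unsettled whether Gins3 differs from its partners.

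**Figure D2:**
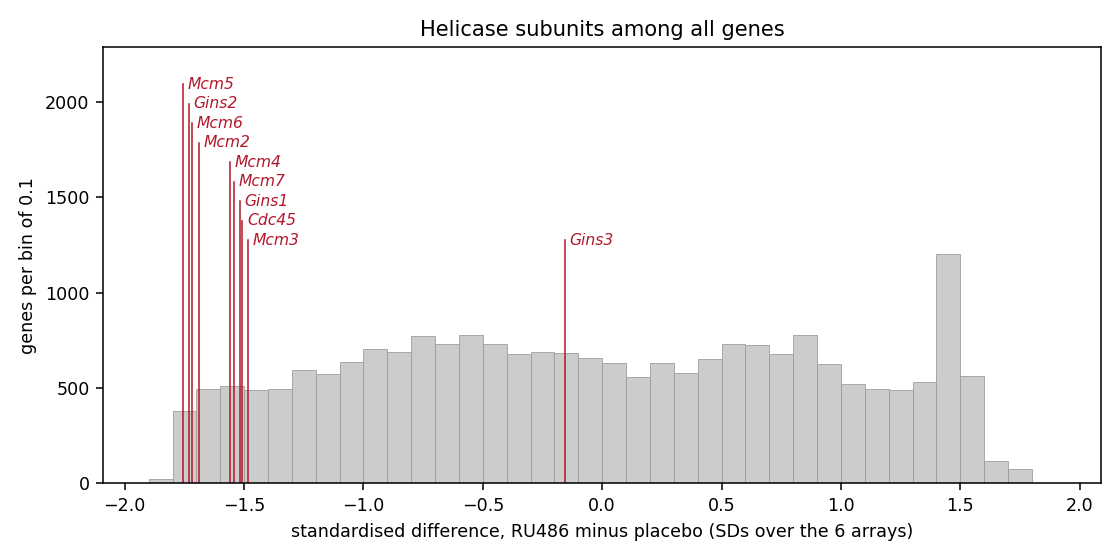
Number of genes in each bin of 0.1 of the standardised difference, RU486 minus placebo, for all 21878 genes (grey bars), with red lines at the 10 members. The lines of 9 members lie between -1.76 and -1.49 and that of Gins3 at -0.16, and the fullest bin, with 1203 genes, runs from 1.4 to 1.5.

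Across arrays, 9 of the members followed nearly the same pattern. Placebo array 3 held the highest score of 9 members, all but Gins3, and RU486 array 3 the lowest score of 9, all but Gins2. In placebo array 3 the members other than Gins3 ranged from 1.16 to 1.62, in placebo array 2 from 0.496 to 0.820 and in placebo array 1 from 0.130 to 0.563. The range of placebo array 3 lay above the others, and those of placebo arrays 1 and 2 overlapped. At the Mcm3 probe annotated to a cDNA clone, by contrast, placebo array 3 was the lowest of the 3 placebo arrays. In RU486 array 1 the 9 genes ranged from -0.862 to -0.151, in RU486 array 2 from -0.932 to -0.132 and in RU486 array 3 from -1.63 to -0.816. RU486 arrays 1 and 2 overlapped throughout, and RU486 array 3 lay mostly below them. The mean of the 10 members was -0.446, -0.617 and -1.14 in RU486 arrays 1 to 3, and 0.373, 0.514 and 1.31 in placebo arrays 1 to 3. With all genes together the array means ran from -0.260 to 0.217 in the RU486 arrays and from -0.304 to 0.235 in the placebo arrays, and the groups overlapped.

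**Figure D3:**
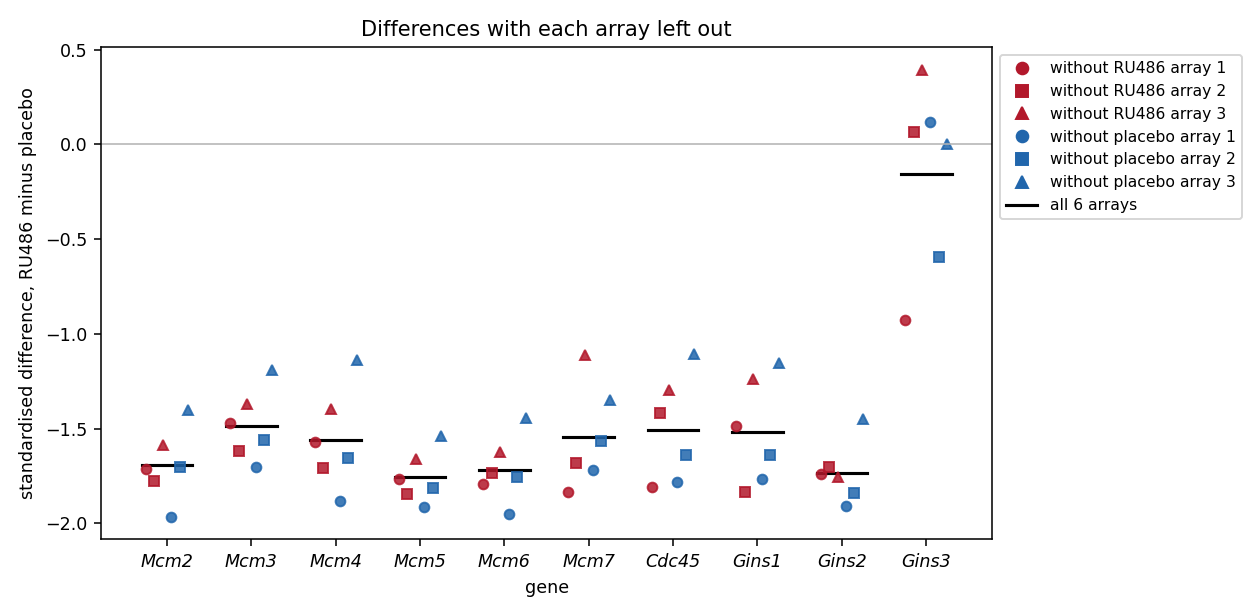
Standardised difference of each member, RU486 minus placebo, with all 6 arrays (black bar) and with each array left out in turn (red for an RU486 array, blue for a placebo array). The differences of 9 members stay at or below -1.11 with any array left out, and Gins3 lies on both sides of 0.

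The loading of the ring needs the origin recognition complex, CDC6 and CDT1. All 4 loading genes were lower at an unadjusted p of 0.05 by limma: Mcmbp, whose product binds MCM subunits outside the ring, at -1.73 (SE 0.297), Cdt1 at -1.72 (SE 0.302), Cdc6 at -1.71 (SE 0.325) and Gmnn, the gene of the CDT1 inhibitor geminin, at -1.39 (SE 0.367). The 2 Gmnn probes had differences of -1.60 and -1.18, and the groups overlapped at the second. Of the 6 origin recognition genes, 2 were lower at that threshold, Orc6 at -1.80 (SE 0.155) and Orc1 at -1.59 (SE 0.452). The other 4 did not pass, among them Orc3 at -1.08 (SE 0.737). Orc5 had a positive difference of 0.74 (SE 0.834).

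Activation of the loaded ring needs the kinase CDC7 with DBF4, and factors that bring in CDC45 and GINS. Of the 9 activation genes, 6 were lower at an unadjusted p of 0.05 by limma. Topbp1, which binds TICRR to recruit GINS, stood at -1.74 (SE 0.270), Cdc7 at -1.72 (SE 0.307) and Mcm10, needed for the ring to start unwinding, at -1.69 (SE 0.339). The 3 that did not pass were Mtbp at -1.40 (SE 0.585), Donson at -1.39 (SE 0.594) and Cdk2 at -0.83 (SE 0.813). DNA polymerase epsilon, which travels on the helicase and copies the leading strand, had 3 of its 4 genes lower, led by Pole at -1.71 (SE 0.274), Pole4 at -1.73 (SE 0.288) and Pole2 at -1.71 (SE 0.322).

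Of the 8 genes of fork protection and of coupling to the primase, 5 were lower at that threshold. Tipin, of the fork protection complex, stood at -1.75 (SE 0.256), Pola1, the catalytic subunit of DNA polymerase alpha, at -1.69 (SE 0.341) and the primase gene Prim1 at -1.68 (SE 0.353). Wdhd1, the gene of the trimer that links CMG to polymerase alpha, averaged -0.03 over 2 probes that went opposite ways. One probe of Wdhd1 stood at 1.52 (SE 0.508) and the other at -1.57 (SE 0.463), each with separated groups. Among the 5 genes of helicase unloading, Lrr1 at -1.76 (SE 0.241) and Traip at -1.70 (SE 0.337), which code for parts of ubiquitin ligases that mark the helicase for removal, were lower. Faf1, a cofactor of the unfoldase p97, was higher at 1.50 (SE 0.520). The ubiquitin ligase scaffold gene Cul2 had a difference of -1.17 (SE 0.701), with overlapping groups.

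Other genes with MCM in their names, which are not subunits of the helicase, did not all go with the ring. Mcm8, which acts with MCM9 in homologous recombination, stood at -1.67 (SE 0.365) and was lower at an unadjusted p of 0.05 by limma. Mcm9 stood at -0.49 (SE 0.861), Mcm3ap, whose product binds MCM3 and serves in mRNA export, at -0.53 (SE 0.874) and Mcmdc2, a gene of meiotic recombination, at 1.12 (SE 0.677), with overlapping groups in each. The partner genes, 41 in all, include Gins4, which was lower. Of the 41, 24 were lower and 1 was higher at an unadjusted p of 0.05, where 7.08% and 5.24% of all genes were. Over all genes 0 of the 41 passed the adjustment, and their median difference was -1.61. The groups did not overlap in 25 partner genes with lower and 1 with higher scores, against 10.8% and 11.2% of all genes.

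**Figure D4:**
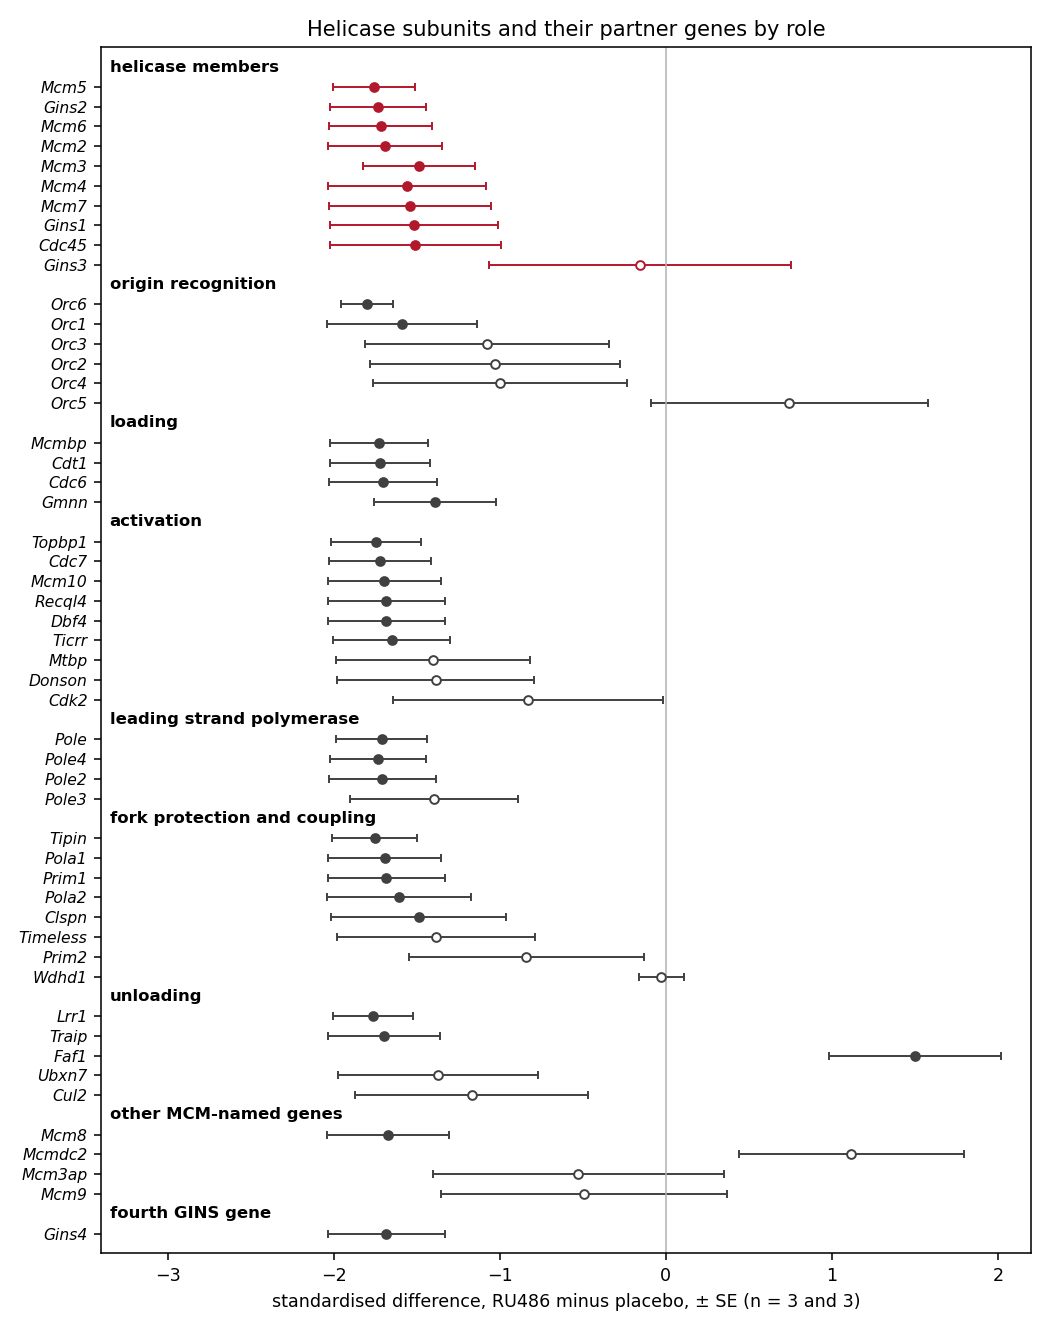
Standardised difference, RU486 minus placebo, with its SE for the 10 members (red) and 41 partner genes, Gins4 among them (dark grey), by role. Filled points have an unadjusted limma p under 0.05 and open points do not. The differences of 9 members and of all 4 loading genes lie between -1.76 and -1.39, and Faf1 is the 1 filled point above 0.

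Of 8 genes of proliferation, 7 were lower and 1 was higher at an unadjusted p of 0.05 by limma, where 7.08% and 5.24% of all genes were. Ccne2, which codes for cyclin E2, was the higher gene, with a difference of 1.69 (SE 0.342). Mki67, which codes for the Ki-67 antigen, scored -0.869, -0.580 and -1.06 in RU486 arrays 1 to 3, against 0.331, 0.712 and 1.47 in placebo arrays 1 to 3. Its scores were spread over the arrays much as those of Mcm2. The likeness of a gene to the members was measured as the root mean square difference, over the 6 arrays, between its scores and the mean profile of the 10 members. It was 0.205 for Mki67, 0.193 for Ccna2, the cyclin A2 gene, 0.208 for Top2a, the topoisomerase II alpha gene, and 0.279 for Pcna, the gene of the sliding clamp, with a median of 1.13 over all genes. Among the members themselves it ran from 0.167 for Mcm3 to 0.275 for Gins1, and it was 1.02 for Gins3. Each member, Gins3 included, is part of the mean profile, so these values are not strictly comparable with those of other genes. The 10 genes outside the members with the smallest values, from 0.113 to 0.147, were H2ac22, H2ac11, H2ac10, Esco2, H2ac12, H2ac15, 1700025G04Rik, Snrpd1, G2e3 and Dna2. Of these, 5 are genes of histone H2A, which are near-identical in sequence, so their probes may read the same RNAs. Esco2 codes for a cohesin acetyltransferase of S phase, Dna2 for a nuclease and helicase of DNA replication, and Snrpd1 for a core protein of the spliceosome. The standardised differences of the 10 genes lay between -1.69 and -1.61, as follows from choosing them by likeness to the member profile.

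The members lie on 6 chromosomes by the RefSeq gene table. Mcm5, Gins2 and Gins3 are on chromosome 8, Mcm3 and Mcm6 on chromosome 1, Mcm4 and Cdc45 on chromosome 16, Mcm2 on chromosome 6, Mcm7 on chromosome 5 and Gins1 on chromosome 2. Around these genes and Gins4, 26 other genes lie within 10 kb, of which 16 were measured. Of the 16, 1 was lower and 0 were higher at an unadjusted p of 0.05 by limma, where 7.08% and 5.24% of all genes were. The share of lower neighbours was thus near that of all genes, and the median difference of the 16 was 0.09. The gene that was lower was Cops6, a subunit gene of the COP9 signalosome next to Mcm7, at -1.66 (SE 0.385). Prkdc, the gene of the DNA-dependent protein kinase next to Mcm4, stood at 0.59 (SE 0.864), and Hmox1, the haem oxygenase 1 gene next to Mcm5, at -0.38 (SE 0.893), both with overlapping groups. The microRNA genes Mir25, Mir93 and Mir106b, which lie within 10 kb of or inside Mcm7, were not analysed here.

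Markers of other cell types that a tumour piece can hold were set beside the members as 11 lists with 80 measured genes. Of these 80, 6 were lower and 0 were higher at an unadjusted p of 0.05 by limma, where 7.08% and 5.24% of all genes were, so the share of lower markers was near that of all genes. The 6 were Fst of granulosa cells, Vwf of endothelium, Cd79a of B cells, S100a8 and S100a9 of neutrophils and Actn3 of skeletal muscle. List means parted the groups in the same direction as the members for red cells, at -0.508 to -0.191 in RU486 arrays and -0.176 to 1.51 in placebo arrays, and for skeletal muscle, at -0.639 to -0.322 in RU486 arrays and 0.285 to 0.657 in placebo arrays. The other 9 lists overlapped between the groups, with granulosa cells at -0.941 to 0.784 in RU486 arrays and -0.583 to 0.834 in placebo arrays, and epithelium at -0.417 to 0.684 in RU486 arrays and -0.521 to 0.738 in placebo arrays. Neutrophil means ran from -0.515 to -0.00433 in RU486 arrays and from -0.123 to 1.19 in placebo arrays, with 2 of 8 genes lower. Endothelial means ran from -1.19 to 0.373 in RU486 arrays and from -0.225 to 0.988 in placebo arrays, with 1 of 8 lower. Those of B and plasma cells ran from -0.702 to 0.258 in RU486 arrays and from -0.162 to 1.06 in placebo arrays, with 1 of 7 lower. The members had their highest mean in placebo array 3, as did the lists of epithelium, skeletal muscle, and B and plasma cells. The lists of neutrophils, red cells, and T and NK cells had theirs in placebo array 1. Stromal means ran from -0.657 to 1.13 in RU486 arrays and from -0.793 to 0.943 in placebo arrays, macrophage means from -0.978 to 1.14 in RU486 arrays and from -0.394 to 0.809 in placebo arrays, and T and NK cell means from -0.346 to 0.114 in RU486 arrays and from -0.00789 to 0.318 in placebo arrays. Steroidogenic means ran from -0.841 to 0.855 in RU486 arrays and from -0.871 to 0.250 in placebo arrays, and in these 4 lists 0 genes passed. The part of these cell types in the result was not tested. Because each probe is scaled, the scores cannot show whether a marker of ovary or of another tissue is present or absent.

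**Figure D5:**
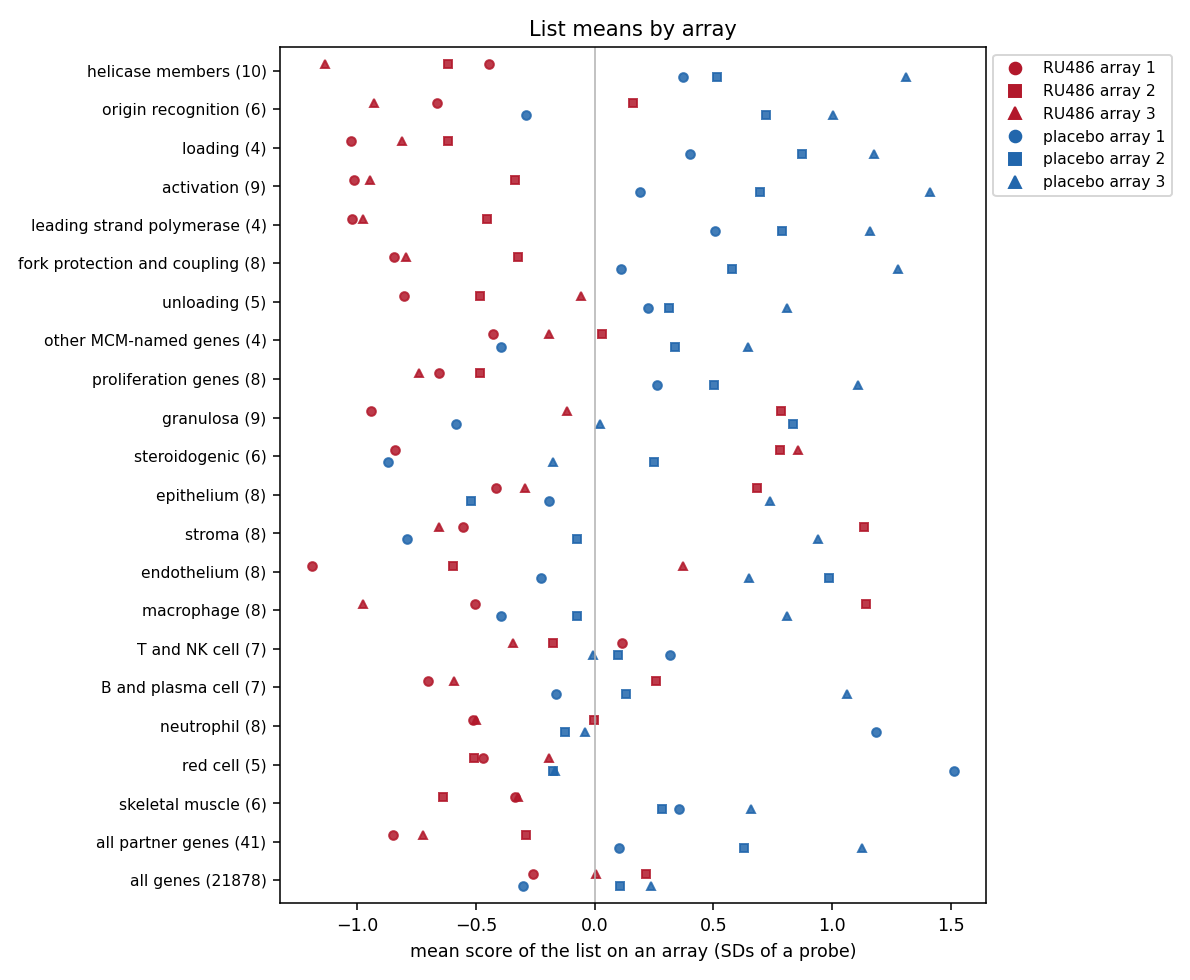
Mean score of each gene list on each array, in SDs of a probe, with the number of measured genes in brackets, RU486 arrays in red and placebo arrays in blue. The 10 members, the loading, activation, polymerase, fork and unloading genes and the proliferation genes have all 3 RU486 arrays left of the 3 placebo arrays, and so do red cell and skeletal muscle markers.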

How the data were processed

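Tumour RNA was measured on 6 single-colour arrays, grouped by sample title. The deposited values are scores: over the 6 arrays the mean is 0 and the SD 1 for each of 37932 probes, as found from the values. Partek, with no version, is named per the submitters' processing notes. The sources used here do not give the background correction, the normalization, any probe filter, or whether log or linear intensities were scaled. Scaling removes brightness, so no filter on low values could be applied, and the number of arrays limits the precision.

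The platform annotation gave 1 symbol for 24903 probes, several for 0 and none for 13029. Names were checked by Entrez ID against the RefSeq table of GRCm38.p6 (24627 probes matched, 0 symbols changed). Averaging the probes of a gene gave 21878 genes. The model, run in limma 3.58.1 under R 4.3.3, had treatment as its term and used all arrays. Its ordinary two-sided statistic, on 4 residual degrees of freedom, was taken because scaling a probe leaves it unchanged. This does not hold for a mean of several probes. Benjamini-Hochberg adjustment ran over all genes, the threshold was 0.05, and the fit was tested on simulated data. Permutation tests used SciPy 1.17.1.

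The members, the partner and marker lists, and the tests were chosen with earlier results of these data known. Named genes are all members, up to 3 partner genes of a role in the order of unadjusted p, the proliferation genes and the 10 genes most like the members. Further partner genes, the contrasts of Gins3, the neighbours within 10 kb and the promoter motifs were chosen after values were seen. Some genes of the marker lists are not reported here. Alternatives were eBayes moderation, median centring, quantile normalization, array weights, the replicate number as a block, the first probe of a gene, single probes, and each array left out.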

Additional observations from a re-analysis of the deposited data

How the results depend on the processing

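The differences of the 9 members other than Gins3 stayed negative, and none passed the adjustment over all genes, under eBayes moderation, median centring, quantile normalization, array weights, the first probe, single probes, the replicate block or with any 1 array left out. Over these alternatives their limma adjusted p ran from 0.0803, with array weights, to 0.727. The weights were 4.96 for placebo array 2 and from 0.342 to 1.20 for the other arrays. Results with array weights thus lean on placebo array 2. Under eBayes moderation all members had the same SE, 0.757, Gins3 included. With differences of at most 1.83 in size, passing the adjustment was hardly possible there, so that setting is a weak check. With an array left out, scores were not scaled again, so a size can pass 1.83: the least negative difference was -1.11, in Cdc45 without placebo array 3 and in Mcm7 without RU486 array 3, and the most negative was -1.97, in Mcm2 without placebo array 1. Gins3, which scored -0.796 in the heavily weighted placebo array 2, turned positive with array weights (0.61). It ranged from -0.93 to 0.39 with arrays left out, and the cause of its spread between arrays was not tested. The count of 9 members lower at an unadjusted p of 0.05 was 5 to 7 with an array left out, and 3 with the replicate block. The replicate numbers are not known to pair the arrays: deviations of same-numbered arrays correlated at 0.25, 0.05 and -0.27 over genes. The partner count of 24 was 20 to 27 with an array left out and 32 with array weights. The 1 gene past the adjustment became 7 with array weights, 2 with every probe fitted alone, and 0 with eBayes, median centring, quantile normalization or the replicate block. Genes lower at an unadjusted p of 0.05 numbered 1548, against 2899 with array weights, 2425 of all probes fitted alone and 1004 to 1962 with an array left out. Separated genes with lower scores numbered 2365, against 3812 of all probes and 2706 to 4889 with an array left out. The planned filter on low values was not run, since scores hold no level.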
